A study of Homo sapiens with 3 samples.

Results

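Class I antigen presentation was described through 9 genes: the heavy chains HLA-B, HLA-C, HLA-E and HLA-F, the shared light chain B2M, the peptide transporter subunits TAP1 and TAP2, the loading factor TAPBP, and the transcriptional coactivator NLRC5. The genes were chosen by name, and all their probes were taken. They were found through the RefSeq transcript that each probe is assigned to, and 15 of the 34041 probes belonged to them, among 19695 named genes in all. The samples were PANC-1 cells, an established human line from a pancreatic ductal carcinoma. Control cells were compared with cells given 20 µM cantharidin or 20 µM okadaic acid for 24 h. Both compounds inhibit protein phosphatase 2A (PP2A), a serine/threonine phosphatase that restrains ERK, JNK, PKC and NF-κB signalling, and the study asked how gene expression responds to them. Each group was a single array of a single line, so the differences below have no replicate check, no test across arrays was possible, and the agents share the same control array.

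Class I molecules display peptides from inside the cell to CD8 T cells and to natural killer cells. A polymorphic heavy chain pairs with β2-microglobulin (B2M) in the endoplasmic reticulum, where the TAP1/TAP2 transporter delivers peptides made by the proteasome, and tapasin (TAPBP) holds the empty molecule beside the transporter until a peptide binds. NLRC5 acts at the S-X-Y module of class I promoters, and interferon and NF-κB add to it through IRF and κB sites. Tumour cells often carry low or uneven amounts of these components. A transcript level measures neither the protein nor its display at the surface.

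Sequence around the start sites of members whose differences from control were unlike is shown here, because IRF and NF-κB factors are known regulators of this pathway. The RefSeq promoter windows (build GRCh38.p14, 250 bases before to 50 after the start) held 7 of the 9 genes; HLA-E and NLRC5 had none. Capitals mark a match to the core of the interferon-stimulated response element (GAAA and GAAA with any 2 bases, NN, between them) or to the NF-κB consensus, on either strand, and overlapping matches run together.
HLA-B (chr6:31357130-31357429, minus strand): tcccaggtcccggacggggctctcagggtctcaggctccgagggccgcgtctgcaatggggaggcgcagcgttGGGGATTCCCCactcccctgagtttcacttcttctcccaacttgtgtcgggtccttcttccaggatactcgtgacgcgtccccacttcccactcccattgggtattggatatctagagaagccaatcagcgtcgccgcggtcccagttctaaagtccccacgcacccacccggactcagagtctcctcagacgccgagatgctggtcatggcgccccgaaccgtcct
HLA-F (chr6:29723184-29723483, plus strand): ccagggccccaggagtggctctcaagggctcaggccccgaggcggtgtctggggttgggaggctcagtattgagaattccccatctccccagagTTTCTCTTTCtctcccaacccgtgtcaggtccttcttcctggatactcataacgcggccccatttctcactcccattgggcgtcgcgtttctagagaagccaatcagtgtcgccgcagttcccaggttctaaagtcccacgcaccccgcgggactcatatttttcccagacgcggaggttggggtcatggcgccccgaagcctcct
B2M (chr15:44711267-44711566, plus strand): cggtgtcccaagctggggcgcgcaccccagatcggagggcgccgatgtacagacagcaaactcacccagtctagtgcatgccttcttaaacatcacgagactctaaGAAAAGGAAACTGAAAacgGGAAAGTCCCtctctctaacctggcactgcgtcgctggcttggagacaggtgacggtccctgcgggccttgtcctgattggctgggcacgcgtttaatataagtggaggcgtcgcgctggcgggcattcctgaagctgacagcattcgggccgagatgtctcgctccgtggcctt
TAP1 (chr6:32853655-32853954, minus strand): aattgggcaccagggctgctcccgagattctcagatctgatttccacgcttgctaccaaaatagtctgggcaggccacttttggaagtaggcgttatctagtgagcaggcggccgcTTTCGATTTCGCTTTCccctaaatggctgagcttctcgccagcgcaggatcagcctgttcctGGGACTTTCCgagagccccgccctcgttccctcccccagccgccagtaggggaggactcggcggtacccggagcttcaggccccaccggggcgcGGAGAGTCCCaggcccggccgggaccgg
TAPBP (chr6:33314029-33314328, minus strand): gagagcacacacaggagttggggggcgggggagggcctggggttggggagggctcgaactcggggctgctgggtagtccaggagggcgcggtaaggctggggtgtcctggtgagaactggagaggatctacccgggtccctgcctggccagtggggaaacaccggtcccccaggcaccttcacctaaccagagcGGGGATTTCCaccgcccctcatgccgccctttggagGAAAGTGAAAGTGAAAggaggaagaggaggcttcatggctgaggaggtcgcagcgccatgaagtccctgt

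The response element core was found for HLA-F, B2M, TAP1, TAP2 and TAPBP, 5 of the 7 genes, and in 3.57% of all 35116 windows of this length. The NF-κB consensus was found for HLA-B, HLA-C, B2M, TAP1 and TAPBP, and in 11.3% of all windows. TAP1 has a second window, 3′ of the first, without a match to either. The CCAAT box (CCAAT) occurred for 5 genes against 34.6% of windows, and the core of the cAMP response element (TGACG) for 4 against 24.6%. In HLA-B both motifs lay between the κB match and the start, the latter at positions -106 to -102. These matches describe letters and not bound sites.

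Signals are log2 intensities minus the 75th percentile of their array, unless called intensities, and a difference of at least 1.5-fold was called, the size the study used. A probe was compared when its signal was clearly above background on either array of a pair, and a gene is given by its brightest probe. All 9 members could be compared. The transcript probes held no saturated spot. For probes with 10 spots brighter than an intensity of 10000, the SD over spots on the log2 scale had a median of 0.05 (control), 0.07 (cantharidin) and 0.06 (okadaic acid). A difference between single spots of the cantharidin and control arrays then had an SD of 0.08, which leaves out the spread between cultures. The epithelial markers KRT8, KRT18, KRT19, KRT7 and EPCAM were well above background on each array, with a sum of unscaled intensities of 146317 for the control, 164573 for cantharidin and 269030 for okadaic acid. The single markers did not move together. After scaling, their log2 differences from control under cantharidin were, in that order, -1.17, 0.99, 0.44, -0.56 and -1.77. Under okadaic acid they were -0.22, 1.20, 1.37, -0.74 and -1.14. Of 9 leukocyte markers, 8, 9 and 9 were well above background, with summed intensities of 11039, 10361 and 31416. CD68 and CD14 gave most of the sum under okadaic acid, and the part of these signals in the results was not tested. Among fibroblast and endothelial markers, 2, 3 and 2 of 5 were above background, LUM was below that mark on each array, and PDGFRB passed it under cantharidin alone. Less RNA per cell and fewer cells of a type cannot be told apart in such bulk RNA.

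Under cantharidin, the class I heavy chains rose together while B2M did not. Of the 9 members, 5 were at least 1.5-fold higher (HLA-B, HLA-C, HLA-E, HLA-F and TAP2), against 27.5% of the 16642 genes compared. TAPBP was at least 1.5-fold lower, against 34.1% of genes. By probe, 6 of the 13 member probes compared were higher, against 26.4% of all probes, and 1 was lower, against 33%. TAP1, B2M and NLRC5 lay within 1.5-fold. The median difference was 0.65 over the members and -0.16 over all genes.

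Under okadaic acid TAP1 was at least 1.5-fold higher, against 28.1% of the 16164 genes compared, and TAPBP at least 1.5-fold lower, against 28.8%. By probe, 3 of 13 were higher, against 26.5% of all probes, and 1 was lower, against 27.7%. The other 7 genes lay within 1.5-fold. The median difference was 0.24 over the members and 0.01 over all genes. The count of higher members depended on the scaling: it was 3 without scaling and 7 when the arrays were scaled to 10 reference genes, which had a median difference of -0.65 under okadaic acid. That last scaling, chosen after the data were seen, moved all genes by 0.69, and TAPBP was then within 1.5-fold. The members' medians under cantharidin and okadaic acid were 0.51 and 0.50 without scaling, and 0.96 and 0.94 with reference genes, so the distance between the medians depended on the scaling.

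**Figure D1:**
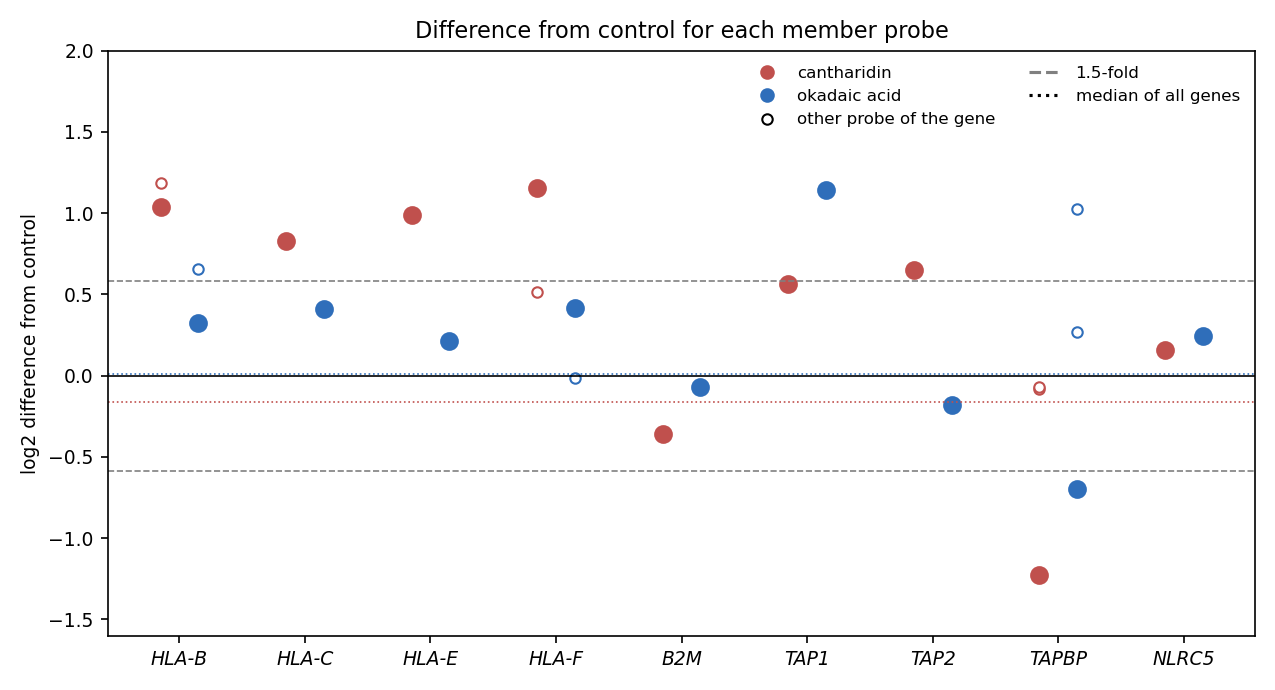
Differences from control on the log2 scale for the probes of each member that could be compared; large filled points are the brightest probe of a gene and small open points its other probes, red for cantharidin and blue for okadaic acid, with dashed lines at 1.5-fold and dotted lines at the median of all genes. The brightest probes of HLA-B, HLA-C, HLA-E, HLA-F and TAP2 lie above the 1.5-fold line under cantharidin, TAP1 under okadaic acid, and TAPBP lies below it under both.

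The heavy chains carry the peptide groove. HLA-B and HLA-C are the classical members here, read by T cells and by killer cell receptors. The brighter HLA-B probe had intensities of 70662 in control cells, 131868 under cantharidin and 105436 under okadaic acid. Cantharidin gave the highest signal and control the lowest, which after scaling was 2.05-fold over control for cantharidin and 1.25-fold for okadaic acid. The second HLA-B probe gave 45587, 94133 and 85803, or 2.27-fold and 1.58-fold. The probes thus fell on the same side of 1.5-fold under cantharidin and on different sides under okadaic acid.

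HLA-C had a single probe, at 54955, 88551 and 87315. The treated arrays were nearly equal in intensity and both above control, and after scaling HLA-C was 1.77-fold higher under cantharidin and at 1.33-fold under okadaic acid.

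HLA-E and HLA-F are non-classical heavy chains with few alleles. HLA-E presents leader peptides of other class I chains to the killer cell receptor NKG2A. Its intensities of 32613, 58709 and 45121 were highest under cantharidin and lowest in control, for 1.98-fold and 1.16-fold. The bright HLA-F probe, at 27607, 55781 and 44043, gave 2.22-fold and 1.34-fold with the same order of arrays. The dim HLA-F probe, assigned to another RefSeq transcript of the gene, had intensities of 122, 159 and 145, which was 1.43-fold with cantharidin and 1.01-fold below control with okadaic acid.

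HLA-G, another non-classical heavy chain, is not among the 9. Its probe had intensities of 98466, 150554 and 142467, or 1.68-fold and 1.21-fold. Class I heavy chains are close relatives, and whether their probes cross-hybridise was not tested, so the heavy chain probes may not be separate measurements.

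**Figure D2:**
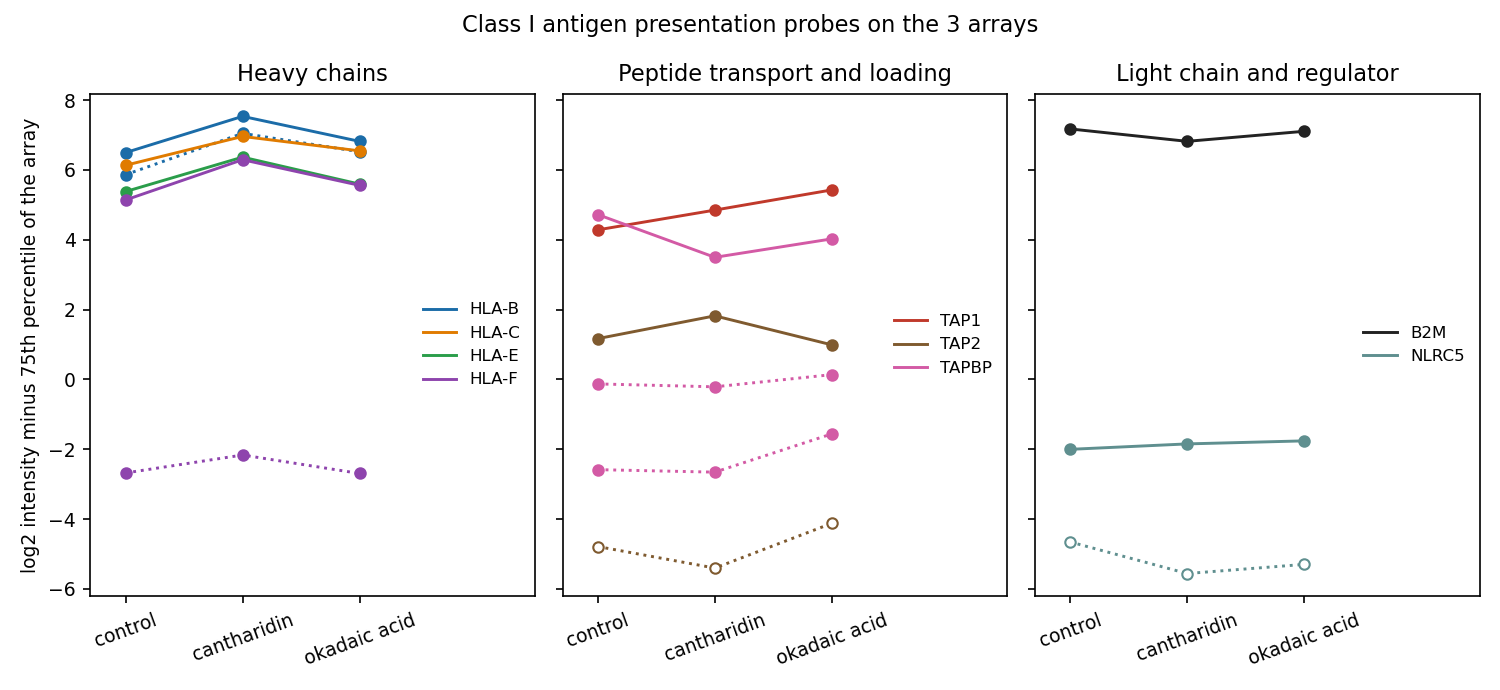
Signal of the 15 member probes on each of the 3 arrays, as log2 intensity minus the 75th percentile of the array; solid lines join the brightest probe of a gene, dotted lines its other probes, and open points were not well above background. The bright heavy chain probes peak under cantharidin, TAP1 is highest under okadaic acid, and B2M is lowest under cantharidin.

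B2M is the invariant light chain needed by every class I heavy chain. It was measured by 10 spots, with mean intensities of 113110 in control cells (104084 to 120315), 80314 under cantharidin (74005 to 83930, over 9 spots without an outlier flag) and 128781 under okadaic acid (125050 to 136265). The cantharidin spots lay below all control spots, and the okadaic acid spots above them before scaling. After scaling, B2M was below control by 1.28-fold (cantharidin) and 1.05-fold (okadaic acid), with spot SDs of 0.07, 0.06 and 0.04 on the log2 scale. The okadaic acid difference had the other sign in 5 of 11 processing alternatives.

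The gap between the heavy chains and B2M does not depend on a common scaling factor, since such a factor cancels. Under cantharidin the difference of HLA-B exceeded that of B2M by 1.39, HLA-C by 1.18, HLA-E by 1.34 and HLA-F by 1.51 on the log2 scale. Over 11 processing alternatives these gaps ranged from 1.11 for HLA-C to 1.56 for HLA-F. Under okadaic acid they were 0.39, 0.48, 0.28 and 0.49, and ranged from 0.12 for HLA-E to 0.56 for HLA-B. Each gap under cantharidin was thus well above 1.5-fold, and none under okadaic acid was. Only another background correction, quantile normalization, the deposited table and the median over a gene's probes could move these gaps, or those between members below. The other alternatives apply a common factor, or change a filter or floor that the brightest member probes pass on each array.

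TAP1 and TAP2 form the transporter that moves peptides into the endoplasmic reticulum. TAP1 read 15256 on the control array, 20519 with cantharidin and 40252 with okadaic acid. Both treated arrays were above control and okadaic acid was the higher, with scaled folds of 1.48 under cantharidin and 2.21 under okadaic acid. The cantharidin value lay just short of 1.5-fold and passed it in 4 of 11 alternatives. The brighter TAP2 probe read 1761, 2515 and 1857, which was 1.57-fold higher with cantharidin and 1.13-fold below control with okadaic acid. Its rise under cantharidin passed 1.5-fold in 9 of 11 alternatives. The second TAP2 probe stayed near background throughout.

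The transporter subunits thus differed alike under cantharidin and apart under okadaic acid. The TAP1 difference minus the TAP2 difference was -0.09 on the log2 scale under cantharidin and 1.32 under okadaic acid, and between 1.26 and 1.33 in the alternatives for the latter. PSMB9, an immunoproteasome subunit that is transcribed away from TAP1 out of a shared promoter, read 730, 251 and 841. This put it 2.65-fold below control with cantharidin and 1.04-fold below with okadaic acid. The TAP1 difference exceeded that of PSMB9 by 1.97 under cantharidin and by 1.20 under okadaic acid.

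TAPBP encodes tapasin, which bridges the empty class I molecule and the transporter. Its brightest probe had intensities of 20660, 8036 and 15230. Control was the highest array and cantharidin the lowest, which put TAPBP 2.34-fold below control with cantharidin and 1.62-fold below it with okadaic acid. This depended on the probe. The 2 dimmer probes, assigned to another RefSeq transcript of the gene, read 717, 615 and 1029, and 131, 113 and 318. With cantharidin they were 1.06-fold and 1.05-fold below control, and they were 1.20-fold and 2.03-fold higher under okadaic acid. The median over the 3 probes was -0.08 under cantharidin and 0.27 under okadaic acid, which turns the direction for okadaic acid.

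NLRC5 is the interferon-inducible coactivator of class I genes. Its brighter probe was dim, with intensities of 196, 198 and 276, while the dimmest probe that counted as above background read between 21.9 and 58.0, depending on the array. The ratio to control was 1.11 for cantharidin and 1.18 for okadaic acid, and its other probe stayed near background throughout. Both values lay within 1.5-fold, and the okadaic acid difference of 0.24 on the log2 scale was 0.94 with reference gene scaling.

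Set directly against each other, the treated arrays separated the heavy chains from TAP1. Signals were at least 1.5-fold lower under okadaic acid than under cantharidin for HLA-B, HLA-E, HLA-F and TAP2, 4 of the 9, against 22.3% of 16198 genes. No member was at least 1.5-fold higher, against 29.5% of genes, and TAP1 came nearest at 1.49-fold. By probe, 4 of 13 were lower, against 22.5% of all probes, and 1 was higher, a dim TAPBP probe, against 28%. The median difference was -0.41 over the members and 0.13 over all genes. The lower count was 0 without scaling and with reference gene scaling, with 3 members then higher. The gaps to B2M cancel a common factor and were -0.70 for HLA-C, -1.06 for HLA-E and -1.02 for HLA-F, with HLA-B between the latter and HLA-C. The value nearest to 0 in the alternatives was -0.68, for HLA-C.

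The all-gene median gives another base for the comparison. Measured from it, the members' median was 0.81 under cantharidin, 0.23 under okadaic acid and -0.54 between the agents. On this base TAP1 joined the higher genes under cantharidin, for 6 members against 31.3% of genes, and TAPBP was the member lower, against 28.9%. Under okadaic acid the calls were TAP1 higher and TAPBP lower, as before. The members also spread less than all genes, with an SD of their differences of 0.78 against 1.55 under cantharidin, and most members were bright while the genes include dim ones.

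Lists of other genes of the pathway were then counted. Of all genes, 27.5% were higher and 34.1% lower under cantharidin, and 28.1% and 28.8% under okadaic acid. Among 8 peptide loading and trimming genes compared, 3 were higher and 1 lower under cantharidin, and 1 was higher and 1 lower under okadaic acid, with medians of 0.17 and 0.27. TAPBPL, a relative of tapasin that edits bound peptides, was 3.91-fold higher under cantharidin and at 1.32-fold under okadaic acid. HSPA5, the chaperone BiP, was 6.42-fold and 2.10-fold higher, and SEC61A1, of the translocation channel, 3.36-fold higher and at 0.49 on the log2 scale. ERAP1, which trims peptides to length, was lower under cantharidin by 1.07 on the log2 scale and differed by -0.25 under okadaic acid. CANX, the chaperone calnexin, was at 0.04 and -0.83.

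Genes of the immunoproteasome, the proteasome activators and the assembly factor POMP formed the next list. Of 8 genes, 6 were lower and 1 higher under cantharidin, against 34.1% and 27.5% of all genes. The median was -1.35, against -0.16 over all genes. Under okadaic acid 2 were lower and 2 higher, against 28.8% and 28.1% of all genes, with a median of -0.37. The PA28 activator subunits PSME1 and PSME2 open the proteasome to peptides. PSME1 was lower under both agents, at -1.82 and -1.30. PSME2 passed 1.5-fold in opposite directions, with intensities of 58086, 27274 and 114244, or 1.94-fold lower and 1.65-fold higher. POMP, which assists proteasome assembly, was at -1.51 and -0.58. PSMB10 was lower under cantharidin at -1.31, while PSMB8 was at 0.40 and -0.17. PSME4, the activator PA200, was higher on its brighter probe, at 1.88 and 1.74, but its other probe gave -0.85 under cantharidin. The constitutive catalytic subunits PSMB5, PSMB6 and PSMB7 lay within 1.5-fold under cantharidin (0.08, -0.05 and 0.41). PSMB5 was lower under okadaic acid, at -0.92.

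Factors that act on class I promoters were counted in the same way. Under cantharidin 5 of 14 were higher and 6 lower, where 27.5% and 34.1% of all genes were, with a median of 0.23. Under okadaic acid 4 of 11 were higher and 2 lower, where 28.1% and 28.8% of all genes were, with a median of -0.11. The NF-κB subunits RELA and NFKB1 were higher under both, at 2.27 and 0.89 for RELA and at 1.14 and 1.80 for NFKB1. NFYA and NFYB, which bind the CCAAT box, were lower under cantharidin, at -2.35 and -3.07, although a second NFYA probe was at 0.48 and 0.76 under the 2 agents. NFYC was higher on its brightest probe, at 1.62 and 1.35. Its other probes were at 0.99 to 1.25 under cantharidin and at 0.30 to 0.81 under okadaic acid. RFXAP, of the complex at the X box, passed 1.5-fold in opposite directions, at -0.87 and 1.16. IRF1, the interferon-induced activator of TAP1 and class I genes, was within 1.5-fold under both (0.31 and -0.19), and IRF2 was at -1.33 and -0.11.

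The interferon-γ receptor and signalling list had 2 of 10 genes higher and 3 lower under cantharidin, with a median of -0.12. The shares of all genes were 27.5% and 34.1%. Under okadaic acid 5 were higher and 1 lower, where 28.1% and 28.8% of all genes were, with a median of 0.57. The receptor chain IFNGR2 was lower under cantharidin, at -1.82, and at -0.42 under okadaic acid. The feedback inhibitor SOCS1 was higher under both, at 1.56 and 3.23, and SOCS3 was at -0.58 and 2.03.

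**Figure D3:**
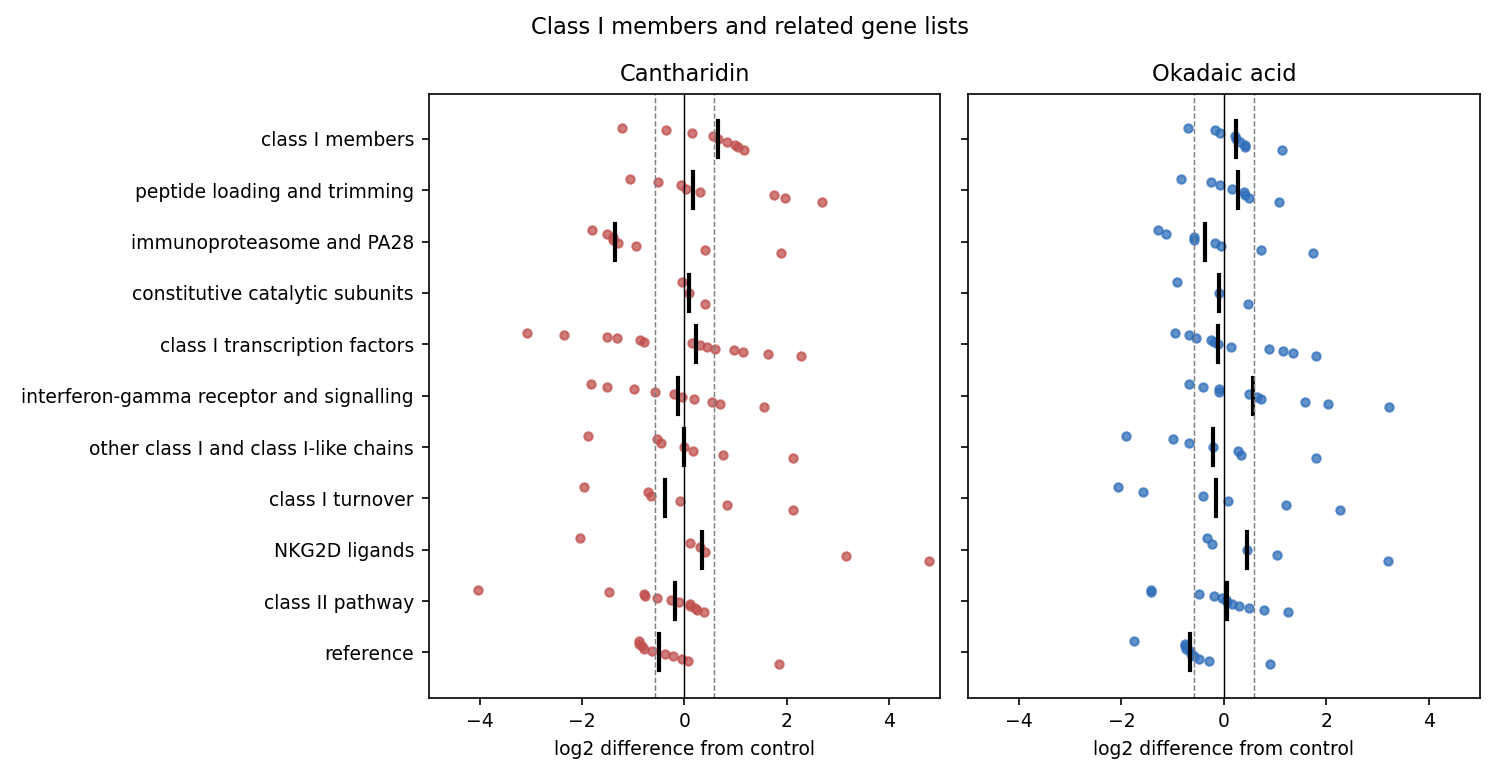
Differences from control on the log2 scale for the members and 10 related gene lists, under cantharidin (left) and okadaic acid (right); points are genes by their brightest probe (also genes well above background on a single array of the pair), black bars are list medians and dashed lines mark 1.5-fold. The median of the immunoproteasome and PA28 list is -1.35 under cantharidin, against 0.65 for the class I members.

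Among the other class I and class I-like chains, 2 of 7 were higher and 1 lower under cantharidin. Under okadaic acid 1 was higher and 3 lower, and the medians were -0.01 and -0.21. The shares of all genes were 27.5% higher and 34.1% lower under cantharidin, and 28.1% and 28.8% under okadaic acid. FCGRT, the neonatal Fc receptor chain that also pairs with B2M, was lower under both agents at -1.88 and -1.91. AZGP1, a secreted class I-like protein, was at 2.12 and 1.79 from a dim control signal of 47.0. MR1, which presents vitamin B metabolites, was at -0.53 under cantharidin and among the 3 lower genes under okadaic acid. Of 6 genes that act on class I turnover, 2 were higher and 3 lower under cantharidin, against the same shares of all genes. Under okadaic acid 2 were higher and 2 lower, and the medians were -0.37 and -0.16. SUSD6 was higher at 2.11 and 2.27, MARCHF4 lower at -1.97 and -2.08, and SPPL3 lower at -0.66 and -1.58. SUSD6 and MARCHF4 promote the removal of class I molecules.

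The genes whose pair of differences from control lay nearest to the members' medians (0.65 and 0.24) were MED9, PISD, OAZ1, PAK1 and CSH1, all within 0.03 log2 units of that pair. Likeness rests on 3 arrays only, and 1162 of 14211 genes (8.18%) were as near to the pair as the median member.

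**Figure D4:**
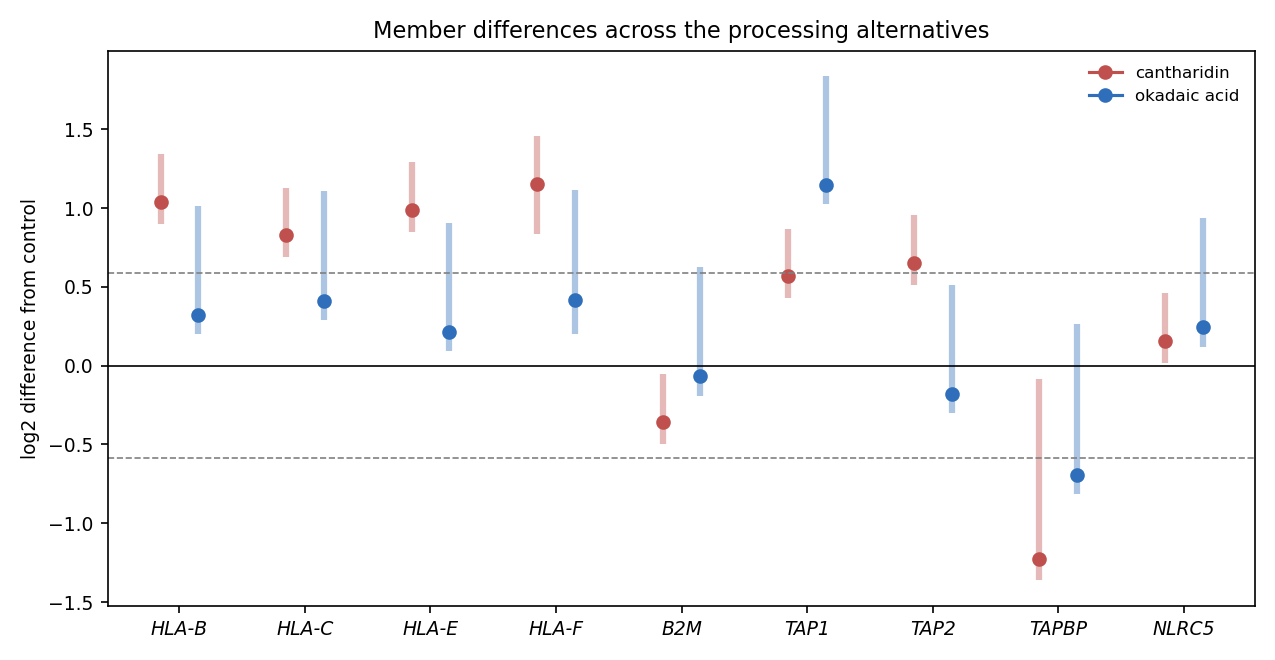
Log2 differences from control of the brightest probe of each member (points) with the range over 11 processing alternatives (bars), red for cantharidin and blue for okadaic acid; dashed lines mark 1.5-fold. The cantharidin ranges of HLA-B, HLA-C, HLA-E and HLA-F stay above 1.5-fold, as does that of TAP1 under okadaic acid, while the okadaic acid ranges of B2M, TAP2 and TAPBP cross 0.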

How the data were processed

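Gene expression was measured in total RNA of 3 samples, each labelled with Cy3 and hybridised to a 1-colour Agilent array. Groups came from the sample titles. The authors deposited scanner output, in which the spot intensity had been background-subtracted and detrended by Feature Extraction 11.0.1.1 with no scaling between arrays, with flags for outliers, saturation and signal above background. A table of normalized log2 values was also deposited, by a method not given in the sources used here, and served as an alternative.

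Spots with outlier flags were left out, log2 values of a probe's spots were averaged, and each array was centred on its 75th percentile. A probe counted as above background when most of its spots were flagged so. Accessions without versions were matched to RefSeq of GRCh38.p14 for 25701 probes. The arrays were annotated on hg19, so no coordinates of probes are given. Members and lists were chosen with earlier results of these data known. Named were all members and, from each list, the 3 genes with the largest difference among those above background on all arrays and those past 1.5-fold in opposite directions; ERAP1, CANX, PSMB8, PSMB9, PSMB10, NFKB1, NFYC, IRF1, IRF2, MICA, ULBP3, HLA-DRA, CTSS, LUM, PDGFRB, CD14 and CD68, the HLA-G probe and the promoters printed were picked after their values were seen. HLA-H, RAET1G, RAET1L, NBR1 and LYZ matched no probe and were not used here. Some genes counted in the lists are not reported here by name.

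Alternatives were normexp background correction (offset 50, on the median spot signal), scaling to the median, to the 75th percentile of probes detected on all arrays or to reference genes (the last added after the data were seen), quantile normalization, unscaled values, omission of the background filter, a filter on all 3 arrays, the deposited table, the median of a gene's probes, dim signals at the array floor and a 2-fold threshold. The calling step was tested on simulated data. Python 3.11.15 with numpy 2.4.6, pandas 2.3.3 and matplotlib 3.10.9, and R 4.3.3 with limma 3.58.1, were used. The number of arrays limits the precision.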

Additional observations from a re-analysis of the deposited data

How the results depend on the processing

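The rises of HLA-B, HLA-C, HLA-E and HLA-F under cantharidin and of TAP1 under okadaic acid passed 1.5-fold in each of the 11 alternatives that give a difference. The changes of background filter and the array floor could not move these values, as the probes were well above background on each array. Nor could the median over probes for HLA-C, HLA-E and TAP1, which had a single probe each. The TAPBP fall under okadaic acid became 0.27 with the median over the probes of the gene, and under cantharidin -0.08, which left 0 members lower under either agent. Under cantharidin 2 members were at least 2-fold higher, and the members' median was 0.51 without scaling and 0.96 with reference gene scaling. Under okadaic acid, 2 members were higher with quantile normalization and with the deposited table, 3 without scaling and 7 with reference gene scaling, and the count lower was 0 without scaling, with reference gene scaling and at 2-fold. The median under okadaic acid was 0.12 with median scaling, 0.50 without scaling and 0.94 with reference gene scaling.

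Between the agents, 1 member was higher under okadaic acid with normexp, with the percentile of detected probes, with quantile normalization and with the deposited table, and 3 without scaling and with reference gene scaling. The count lower was 0 without scaling, with reference gene scaling and at 2-fold. The median between the agents was -0.57 with median scaling, -0.22 with quantile normalization, -0.21 with the deposited table, -0.020 without scaling and -0.024 with reference gene scaling. Scalings that move all genes alike shifted the all-gene median by up to 0.30 under cantharidin and 0.69 under okadaic acid, both with reference genes. Of the single-member differences, 204 moved by less than the SD of a difference between single spots over all probes with 10 spots (0.13 for cantharidin, 0.11 for okadaic acid and 0.13 between them), 92 moved by more, and 1 that had passed 1.5-fold, TAPBP above, changed sign. The 204 include all values under the changed background filters and the array floor, which could not differ from the main ones. B2M, not past 1.5-fold under okadaic acid, went from -0.07 to 0.63 with reference gene scaling. Signal over background limits the TAP2 and NLRC5 probes that could not be compared. No paired analysis was possible because each group was 1 array.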

Other observations

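Genes next to the class I pathway were also read. NKG2D ligands mark stressed cells for natural killer cells. Of 6 with a comparison, 2 were higher and 1 lower under cantharidin, where 27.5% and 34.1% of all genes were. Under okadaic acid 2 of 5 were higher and 0 lower, where 28.1% and 28.8% of all genes were. The medians were 0.35 and 0.44. ULBP1 rose from an intensity of 282 in control cells to 7029 under cantharidin and 3106 under okadaic acid, or 27.4-fold and 9.23-fold. Its second probe, near background on the control array, gave at least 3.80-fold for cantharidin. ULBP3 was well above background under cantharidin only, at least 4.86-fold higher than control. MICB was 4.14-fold below control with cantharidin and 1.25-fold below with okadaic acid, where its second probe was 2.37-fold below, while MICA was at 0.40 and 0.44 on the log2 scale (0.32 and 0.61 on its second probe) and ULBP2 at 0.12 and 1.03.

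Class II genes were mostly dim. Of 12 compared, 0 were higher and 4 lower under cantharidin, where 27.5% and 34.1% of all genes were. Under okadaic acid 2 were higher and 2 lower, where 28.1% and 28.8% of all genes were. The medians were -0.18 and 0.06. HLA-DMB, a peptide exchange factor, had intensities of 1395, 77.6 and 619, or 16.3-fold and 2.69-fold below control. HLA-DRA and CTSS stayed near background throughout, and CIITA, the class II coactivator, was at -0.78 and -1.42 on its brighter probe but at 0.12 and 0.40 on the other. HLA-DPB1 was at -1.47 and -0.49 on its brightest probe, which was itself dim. A dimmer probe was at 0.30 and 0.19, and was not well above background on the okadaic acid array. Among the reference genes TBP was higher under both agents, at 1.86 and 0.91, while HPRT1 and GUSB were lower, at -0.89 and -1.75 and at -0.88 and -0.77.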
